A study of Mus musculus with 2 samples.

Results

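Lmx1b, En1 and Wnt7a, the genes that set the dorsal and ventral sides of the limb bud, were described by the open chromatin around them in mouse embryonic limb. The assay was DNase-seq, in which the nuclease DNase I cuts exposed DNA and sequenced fragment ends pile up where chromatin is open. The material was limb tissue of healthy embryos of strain B6NCrl at 11.5 days, males and females pooled, with no treatment or engineered allele in the labels. The 2 libraries, biological replicates 1 and 2 with 1 technical replicate each, form 1 group, so no condition is contrasted with another. The labels do not say whether fore- and hindlimbs were both taken, and they give both samples the same donor identifier, so the spread between them may be partly technical. In bulk tissue, fewer cells with an open site and a less open site per cell cannot be told apart.

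For each gene, a peak counted as promoter when its centre lay within 1 kb of a start of a protein-coding transcript, as body when its centre lay inside the gene, and as distal when it lay beyond 1 kb and the nearest protein-coding start, within 500 kb, was that gene's. Body and distal overlap, since most of a gene lies over 1 kb from its start. A shared region is the union of peaks of both libraries that overlap by at least 1 bp. By these rules 139 of 174430 peaks of replicate 1 and 151 of 167369 peaks of replicate 2 on the named chromosomes belonged to the 3 genes, and they formed 104 of 118491 shared regions. Lmx1b had 69 of these, En1 24 and Wnt7a 11. The genes are 3 of 21853 protein-coding genes with a start.

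Dorsal limb ectoderm makes WNT7A, a secreted WNT ligand that turns on Lmx1b in the mesenchyme beneath it. LMX1B, a LIM-homeodomain transcription factor, gives that mesenchyme its dorsal character, seen later in tendons, muscles and nails. EN1, a homeodomain repressor made in ventral ectoderm under BMP signalling, keeps Wnt7a off on the ventral side. Published work in mouse places limb enhancers bound by LMX1B itself upstream of Lmx1b, and a noncoding RNA locus downstream of En1 that limb En1 depends on. No coordinates of those elements were used here.

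The tissue label was checked against gene lists. A shared promoter region was found at 12 of 12 limb mesenchyme genes (such as Prrx1 and Twist1), 10 of 13 surface ectoderm genes, 8 of 8 neural genes, 2 of 3 muscle precursor genes, 1 of 5 endothelial genes and 0 of 5 blood genes. The ectoderm genes without one were Krt8, Krt14 and Krt15, and each had a promoter peak in replicate 1 alone. Across all protein-coding genes 66.8% had a shared promoter region, so an open promoter is no measure of a cell type. Wnt7a and En1 are ectodermal in the limb and Lmx1b mesenchymal. The part that the share of ectoderm in each library plays in the counts below was not tested.

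Lmx1b lies on the minus strand of chromosome 2 (ENSMUSG00000038765.13, chr2:33560965-33640511, mm10) and has 2 protein-coding starts. Its nearest sequence, in which no other protein-coding start is closer, spans 209 kb. The neighbouring starts are those of Mvb12b, 246 kb upstream, and Zbtb43, 172 kb downstream. En1 lies on the plus strand of chromosome 1 (ENSMUSG00000058665.8, chr1:120602418-120607992) with 1 start and 409 kb of nearest sequence, 360 kb of it downstream towards Insig2 and 48.7 kb upstream towards Marco. Wnt7a lies on the minus strand of chromosome 6 (ENSMUSG00000030093.7, chr6:91363981-91411363) with 1 start and 130 kb of nearest sequence, bounded by Chchd4 62.2 kb upstream and Fbln2 199 kb downstream. Distances below run from the member's start along its direction of transcription.

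Sequences are given for the regions the results turn on, at each gene the strongest promoter region and the 3 strongest distal regions. Strength is the mean over both libraries of the peak signal's percentile in its own list. All are read from the plus strand of the GRCm38.p6 genome (mm10), so those of Lmx1b and Wnt7a, on the minus strand, run against transcription. Capitals mark short letter runs that transcription factor families are known to prefer, searched on both strands. These were TAATTA (homeodomain core), CTTTGAA and CTTTGAT (LEF/TCF), CAGCTG and CATCTG (E-boxes of basic helix-loop-helix factors), TGGGTGGTC (GLI), GGCGCC (SMAD), GGAATG (TEAD), TGACGTCA (CRE) and GGGCGG (SP). A match is only a match of letters.
Lmx1b promoter, 0.65 kb upstream, chr2:33641099-33641245 (+), part upstream of the RefSeq start: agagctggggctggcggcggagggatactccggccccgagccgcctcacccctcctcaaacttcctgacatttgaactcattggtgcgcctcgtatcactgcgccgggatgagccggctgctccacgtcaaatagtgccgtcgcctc
Lmx1b distal, 60.4 kb upstream, chr2:33700756-33700965 (+): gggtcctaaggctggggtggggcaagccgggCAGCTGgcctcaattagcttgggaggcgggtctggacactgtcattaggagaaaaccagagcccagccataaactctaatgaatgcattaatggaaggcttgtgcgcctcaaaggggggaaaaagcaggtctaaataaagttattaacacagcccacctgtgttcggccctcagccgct
Lmx1b distal, 61.0 kb upstream, chr2:33701456-33701665 (+): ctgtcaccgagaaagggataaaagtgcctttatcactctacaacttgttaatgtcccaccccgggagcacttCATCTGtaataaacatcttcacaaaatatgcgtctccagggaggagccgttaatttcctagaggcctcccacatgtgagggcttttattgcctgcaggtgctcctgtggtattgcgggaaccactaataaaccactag
Lmx1b distal, 2.74 kb upstream, chr2:33643156-33643345 (+): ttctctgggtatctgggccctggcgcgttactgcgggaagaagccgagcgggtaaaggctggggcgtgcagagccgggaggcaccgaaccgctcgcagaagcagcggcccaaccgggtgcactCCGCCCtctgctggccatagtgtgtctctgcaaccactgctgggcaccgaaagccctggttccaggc
En1 promoter, 0.107 kb upstream, chr1:120602236-120602385 (+): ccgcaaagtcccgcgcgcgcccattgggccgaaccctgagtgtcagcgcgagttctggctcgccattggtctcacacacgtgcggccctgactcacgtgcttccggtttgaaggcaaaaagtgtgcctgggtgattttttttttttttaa
En1 distal, 139 kb downstream, chr1:120741476-120741665 (+): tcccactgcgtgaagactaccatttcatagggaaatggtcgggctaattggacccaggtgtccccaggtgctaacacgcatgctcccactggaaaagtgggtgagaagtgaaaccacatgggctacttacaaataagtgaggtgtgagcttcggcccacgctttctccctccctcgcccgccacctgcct
En1 distal, 159 kb downstream, chr1:120761456-120761645 (+): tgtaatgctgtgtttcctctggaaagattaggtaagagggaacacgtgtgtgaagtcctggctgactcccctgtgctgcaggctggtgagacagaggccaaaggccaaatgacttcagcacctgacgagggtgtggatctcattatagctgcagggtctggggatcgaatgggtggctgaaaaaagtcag
En1 distal, 360 kb downstream, chr1:120962036-120962225 (+): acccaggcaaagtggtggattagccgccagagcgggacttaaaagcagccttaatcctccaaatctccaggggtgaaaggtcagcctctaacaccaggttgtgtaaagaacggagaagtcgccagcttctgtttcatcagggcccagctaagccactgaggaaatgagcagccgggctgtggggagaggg
Wnt7a promoter, 0.558 kb upstream, chr6:91411836-91412005 (+): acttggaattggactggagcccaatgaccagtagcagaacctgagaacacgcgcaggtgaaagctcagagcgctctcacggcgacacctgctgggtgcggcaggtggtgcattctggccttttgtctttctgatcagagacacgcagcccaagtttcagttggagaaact
Wnt7a distal, 29.6 kb upstream, chr6:91440856-91441005 (+): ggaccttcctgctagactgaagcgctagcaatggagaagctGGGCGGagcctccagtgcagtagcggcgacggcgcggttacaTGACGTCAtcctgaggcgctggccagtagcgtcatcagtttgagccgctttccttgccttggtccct
Wnt7a distal, 3.72 kb upstream, chr6:91414996-91415165 (+): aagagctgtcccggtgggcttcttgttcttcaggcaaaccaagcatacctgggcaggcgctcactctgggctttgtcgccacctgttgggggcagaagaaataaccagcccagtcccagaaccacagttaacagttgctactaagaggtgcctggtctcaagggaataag
Wnt7a distal, 1.76 kb downstream, chr6:91409516-91409685 (+): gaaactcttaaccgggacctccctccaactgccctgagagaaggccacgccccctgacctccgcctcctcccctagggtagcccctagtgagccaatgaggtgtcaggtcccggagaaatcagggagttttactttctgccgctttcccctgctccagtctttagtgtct
Among these 12 sequences, 4 held a searched run. The region 60.4 kb upstream of Lmx1b held CAGCTG, the one 61.0 kb upstream held CATCTG, the one 2.74 kb upstream held GGGCGG as its reverse complement, and the one 29.6 kb upstream of Wnt7a held both GGGCGG and TGACGTCA. None of the 4 En1 sequences held one. No printed sequence held TAATTA or a LEF/TCF, GLI, SMAD or TEAD run.

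Lmx1b had 3 shared promoter regions, En1 had 1 and Wnt7a had 2. Each gene thus had an open promoter in both libraries, as did 66.8% of all protein-coding genes, so this is close to the common state. Peak signal, the authors' value for each 150 bp peak, had a list median of 47 in replicate 1 and 39 in replicate 2, and a 90th percentile of 93 and 87. The strongest Lmx1b promoter region, 0.65 kb upstream of the annotated start, had a signal of 102 in replicate 1 and 104 in replicate 2. It was the only promoter region of the 3 genes above the 90th percentile of both lists. It lies over the RefSeq start of Lmx1b, which is 587 bp upstream of the GENCODE start used for distances. The start of the antisense RNA gene C130021I20Rik, on the opposite strand and 0.682 kb upstream of the GENCODE start, lies in the same region. The signal there need not belong to Lmx1b alone. The other Lmx1b promoter regions lay 0.02 kb upstream of the start, with 55 and 46, and 0.43 kb downstream in intron 1, with 51 and 42. In each library 4 peaks were listed within 1 kb. The unmatched peak lay in coding exon 2 in replicate 1, with a signal of 56, and in intron 1 in replicate 2, with 60.

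The En1 promoter region, 0.107 kb upstream of the start, had a signal of 80 in replicate 1 and 84 in replicate 2. It lay in narrow hotspots, the wider enriched intervals of the deposited lists, of 254 bp with a −log10 q of 4.66 in replicate 1 and 163 bp with 2.14 in replicate 2. The Lmx1b region at 0.65 kb lay in hotspots of 967 bp and 2720 bp, both at the value of 100 that the lists use as their ceiling. The Wnt7a region 0.558 kb upstream, inside an exon of the unclassified transcript Gm30437, had a signal of 83 in replicate 1 and 75 in replicate 2. The second Wnt7a region, 0.112 kb downstream of the start in the 5′ untranslated region, was weaker at 37 and 38, under the list median in both libraries.

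**Figure D1:**
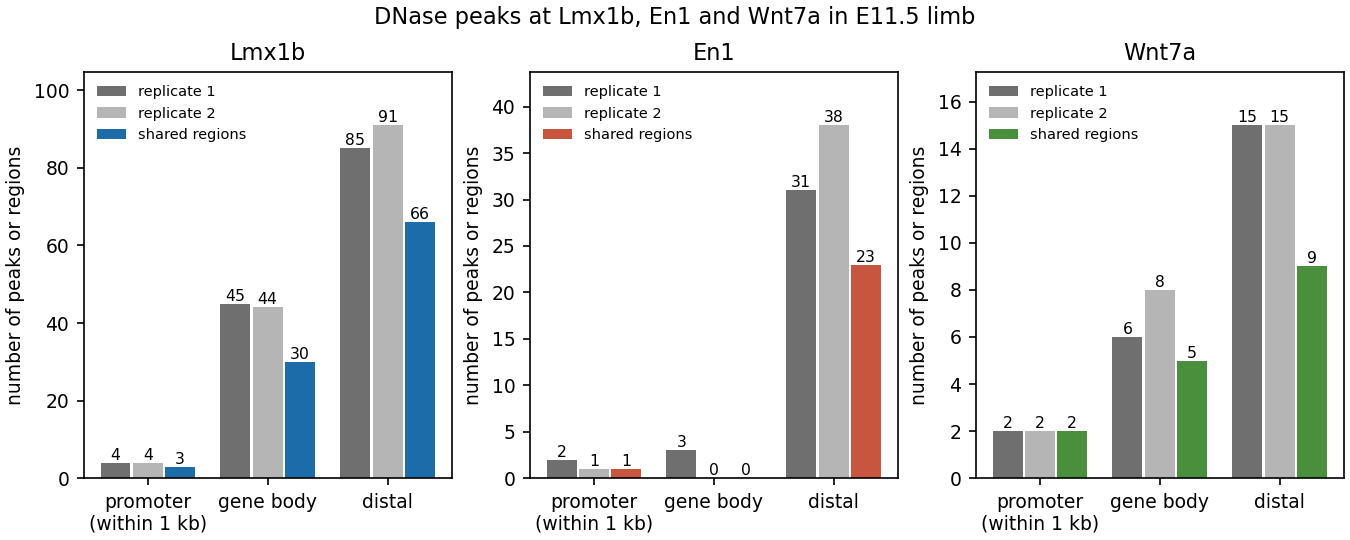
Number of peaks in replicate 1 and replicate 2 and of shared regions (bars, y axis with its own range in each panel) by class for Lmx1b, En1 and Wnt7a. Distal shared regions number 66, 23 and 9, and En1 has 3 body peaks in replicate 1 and 0 in replicate 2.

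Distal counts differed between the 3 genes. They come from unequal nearest sequence, 209 kb at Lmx1b, 409 kb at En1 and 130 kb at Wnt7a, and are not corrected for length. Lmx1b had 85 distal peaks in replicate 1 and 91 in replicate 2 (88 ± 4.24, SD, n = 2), and 66 shared regions. En1 had 31 and 38 (34.5 ± 4.95, SD, n = 2), and 23 shared regions. Wnt7a had 15 in each, and 9 shared regions. The counts of the 3 genes did not overlap between libraries. At least as many distal shared regions as at Lmx1b were found at 22 genes, Lmx1b included, or 0.101% of protein-coding genes. The corresponding share was 2.99% for En1, with 653 genes, and 13.9% for Wnt7a, with 3034 genes, while the median gene had 1. The body of Lmx1b held 45 and 44 peaks and 30 shared regions, which 0.764% of genes reached.

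Of the Lmx1b distal peaks, 68 of 85 in replicate 1 overlapped a peak of replicate 2, or 80% (Wilson 95% interval 70.3 to 87.1%). Of those in replicate 2, 70 of 91 or 76.9% (67.3 to 84.4%) overlapped a peak of replicate 1. At En1 the shares were 74.2% (56.8 to 86.3%) and 63.2% (47.3 to 76.6%), and at Wnt7a 66.7% (41.7 to 84.8%) and 60% (35.7 to 80.2%). Over all peaks 69.8% of replicate 1 and 73.1% of replicate 2 overlapped. Every interval of the 3 genes held the share over all peaks, except that of Lmx1b in replicate 1, which began just above it. The share over all peaks includes promoter peaks, and one for distal peaks alone was not computed, so the 2 sides are unlike. The intervals cover counting error over peaks only, and neighbouring peaks are not independent.

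Per length of nearest sequence, Lmx1b had 31.6 distal shared regions per 100 kb. Among 5965 protein-coding genes with at least 100 kb of nearest sequence the median was 3.44, and no other gene reached the Lmx1b value. Next came Gbx2 with 24.8. Lmx1b also ranked first in replicate 1 alone, in replicate 2 alone, and among the 3125 genes with at least 200 kb. Among the 10396 genes with at least 50 kb it ranked 5 by shared regions and 11 in each library. These length minimums were chosen after the values were seen. En1 had 5.62 per 100 kb, reached by 25.7% of the 5965 genes, and Wnt7a 6.9, reached by 16.4%. By density both stood above the median but not at the end of the range. Wnt7a stood above En1 by density, the reverse of their order by count.

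**Figure D2:**
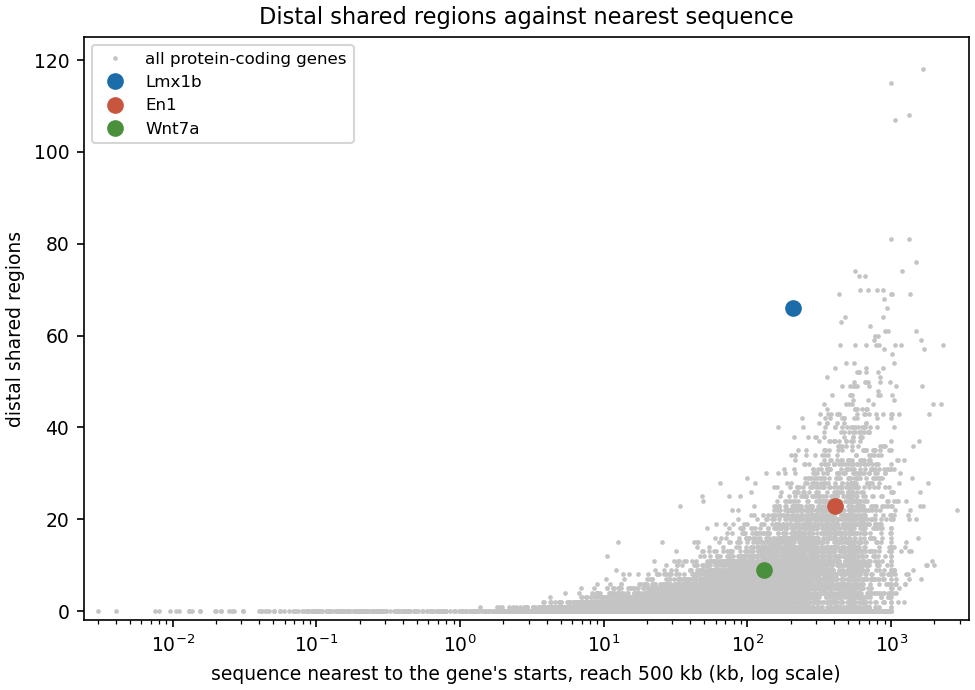
Distal shared regions (y axis) against each gene's nearest sequence (x axis, kb, log scale) for 21853 protein-coding genes (grey), with the 3 genes marked. Lmx1b has 66 regions over 209 kb and has the most per length of genes with at least 100 kb, while En1 and Wnt7a lie inside the cloud.

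The Lmx1b distal regions lay on both sides of the start, 33 in the 123 kb upstream and 33 in the 86 kb downstream, from 1.17 kb to 115 kb away. Neighbouring regions had a median spacing of 940 bp, and the widest gap was 20.9 kb. Of the 66, 29 lay in intron 2 of Lmx1b, 9 in the antisense RNA gene C130021I20Rik just upstream, 5 in the long noncoding RNA gene 9430024E24Rik, 5 in introns of the neighbour Mvb12b, and 18 in intergenic sequence. Of the intron 2 regions, 10 lay between 1 and 10 kb from the start. The upstream regions fell into a group of 10 between 1 and 10 kb and a group of 15 between 50 and 100 kb, with 5 in between and 3 beyond 100 kb.

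The strongest Lmx1b distal region, at chr2:33700756-33700965 and 60.4 kb upstream in intergenic sequence, had a signal of 122 in replicate 1 and 119 in replicate 2. Its neighbour at chr2:33701456-33701665, 61.0 kb upstream, had 110 and 90, and both lay in 1 hotspot of 1702 bp in replicate 1 and 1813 bp in replicate 2, at the ceiling in each. Apart from the pair, shared regions also lay 63.0 kb upstream with 57 and 54, 65.6 kb with 86 and 75, 67.3 kb with 46 and 43, and 67.7 kb with 80 and 60. The third strongest, 2.74 kb upstream in an exon of the antisense RNA gene, had 109 and 89. The fourth, 47.4 kb downstream in intron 2, had 102 and 90. The fifth place fell to regions 8.56 kb upstream, with 94 and 97, and 113 kb upstream in an intron of Mvb12b, with 97 and 92, whose mean percentiles were both 91.6. The lowest signal among the 66 was 36 in replicate 1, at the region 4.83 kb upstream, and 24 in replicate 2, at the region 4.36 kb upstream, so the set spans strong and weak regions.

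**Figure D3:**
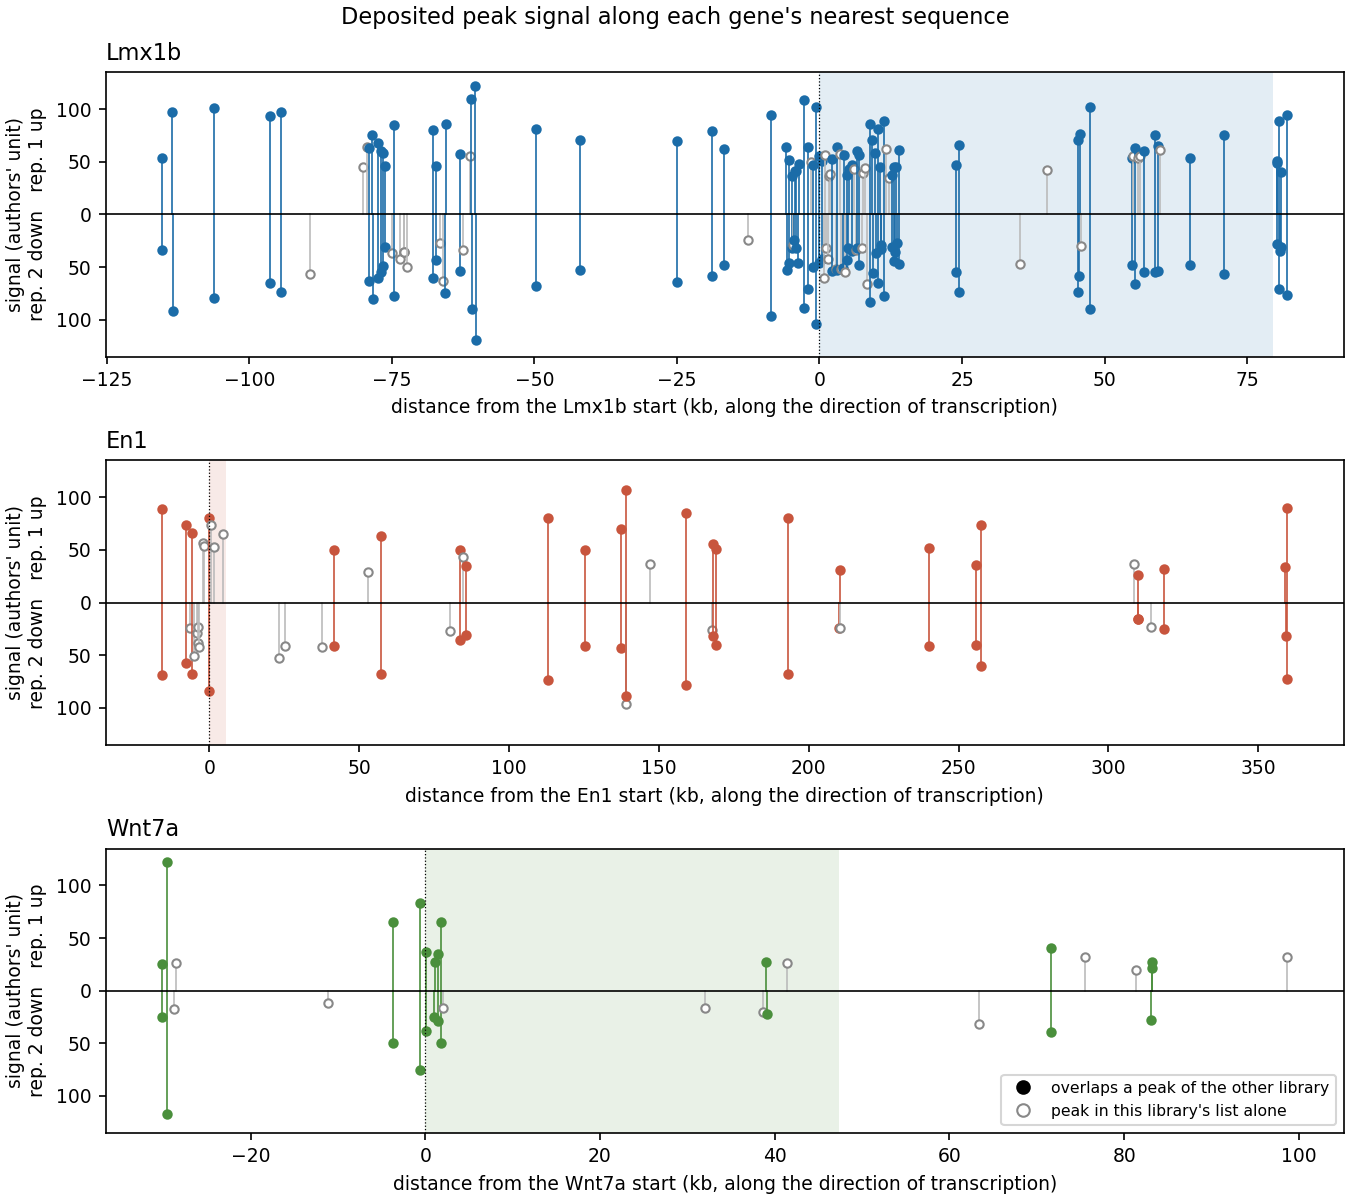
Signal of every peak of Lmx1b, En1 and Wnt7a (y axis, authors' unit; replicate 1 upward, replicate 2 downward) by distance from the start (x axis, kb along transcription); shading is the gene body. Filled points overlap a peak of the other library. The tallest Lmx1b region stands 60.4 kb upstream at 122 and 119, the tallest En1 region 139 kb downstream at 107 and 89, and the tallest Wnt7a region 29.6 kb upstream at 122 and 117.

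The median signal of the Lmx1b distal shared regions was 63.5 in replicate 1 and 55 in replicate 2, at list percentiles 71.2 and 70.6. Over all 87894 distal shared regions the medians were 53 and 43, at percentiles 59.7 and 56.9. En1 stood near these with 56 and 41, at percentiles 63.5 and 53.9. Wnt7a stood below them with 35 and 29, at percentiles 26 and 30.5, and 6 of its 9 regions in replicate 1 and 5 in replicate 2 were under the list median. In both libraries the Lmx1b distal regions thus had a higher median than all distal shared regions, and those of Wnt7a a lower one.

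Most En1 distal regions lay downstream, as does most of its nearest sequence. Of 23 shared regions, 20 lay in the 360 kb downstream, 16 of them beyond 100 kb, and 3 in the 48.7 kb upstream. None lay in the gene, which is 5575 bp long. They were spaced widely, with a median of 13945 bp between neighbours and a largest gap of 52.5 kb. Of the 23, 18 were intergenic, 4 lay in introns of the long noncoding RNA gene 2610027F03Rik, whose start is 19.3 kb downstream, and 1 in an intron of the long noncoding RNA gene Gm29346.

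The strongest En1 distal region lay at chr1:120741476-120741665, 139 kb downstream in intergenic sequence, with a signal of 107 in replicate 1 and 89 in replicate 2. A further peak of replicate 2 beside it, with a signal of 96, overlapped no peak of replicate 1 but did overlap its hotspot there. The region 159 kb downstream, in the intron of Gm29346, had 85 and 78. The region 360 kb downstream, the last before the limit towards Insig2, had 90 and 73, and the next shared region, 362 kb from En1 with 68 and 58, was closer to Insig2. Upstream, the region at 15.7 kb had 89 and 69, and the region 113 kb downstream had 80 and 74.

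Long noncoding RNA genes lie along the En1 flank. Of those starting downstream within the nearest sequence, only Gm29348, whose start is 255 kb from En1, had a shared region within 1 kb of its start. That region, 256 kb downstream, had a signal of 36 and 40, below the median of replicate 1 and just above that of replicate 2. A stronger region 257 kb downstream had 74 and 60. The starts of 2610027F03Rik, Gm29346, Gm29345 and Gm29347 had no peak within 1 kb in either library.

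The libraries differed at and just upstream of the En1 gene. Replicate 1 listed 3 peaks in the gene, in coding exon 1, intron 1 and coding exon 2, with signals of 74, 53 and 65. Replicate 2 listed 0 there, and none of the 3 overlapped a hotspot of replicate 2. Between 3.43 and 6.47 kb upstream the reverse held, with 6 peaks in replicate 2 of signals 23 to 51 that overlapped no peak or hotspot of replicate 1. They flank the shared region at 5.85 kb. Of the 9 En1 peaks listed in replicate 1 alone, 9 also lacked a hotspot of replicate 2, and of the 14 listed in replicate 2 alone, 12 lacked one of replicate 1. At Wnt7a the corresponding counts were 5 of 5 and 6 of 6, and at Lmx1b 7 of 18 and 13 of 22. No share over all unmatched peaks of the lists stands beside these counts, so nothing particular to the 3 genes follows from them. For replicate 2 the labels list 2 sequencers and for replicate 1 they list none, and the part of sequencing depth or instrument in these differences was not tested.

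By count the Wnt7a locus held the fewest distal regions of the 3 genes. There were 3 in the 31.1 kb upstream and 6 in the 99.3 kb downstream, between 1.07 and 83.2 kb away. Its strongest, at chr6:91440856-91441005 and 29.6 kb upstream, had a signal of 122 in replicate 1 and 117 in replicate 2, as high as the strongest Lmx1b region. It lies across the starts of 2 noncoding genes that point away from each other, the long noncoding RNA gene 1810044D09Rik and the transcribed pseudogene 4930471M09Rik. The rule assigns it to Wnt7a because neither is protein-coding. It is the only distal region of the 3 genes with TGACGTCA, found in 0.333% of distal and 1.83% of promoter shared regions of all genes.

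The other Wnt7a regions were weaker. The region 3.72 kb upstream in intergenic sequence and the region 1.76 kb downstream in intron 1 each had a signal of 65 in replicate 1 and 50 in replicate 2. The region 71.6 kb downstream, past the gene's end, had 41 and 39, and the region 1.42 kb downstream in intron 1 had 35 and 29. Without the region at the noncoding starts, no Wnt7a distal region reached the 90th percentile of a list. The first shared region beyond the downstream limit, 125 kb from Wnt7a and assigned to Fbln2, had 96 and 95, and the last inside it, at 83.2 kb, had 27 and 28. The assignment by nearest start leaves that strong region outside the Wnt7a set.

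**Figure D4:**
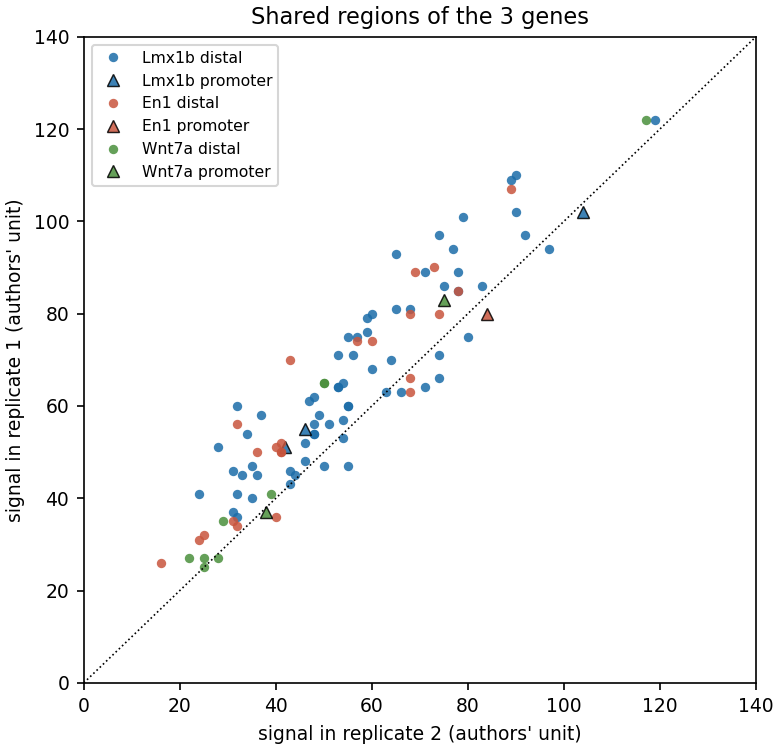
Signal of each shared region in replicate 1 (y axis) against replicate 2 (x axis), both in the authors' unit, for distal (circles) and promoter regions (triangles) of the 3 genes; the dotted line marks equal values. Most points lie above it, with replicate 1 higher in 55 of 66 Lmx1b, 20 of 23 En1 and 7 of 9 Wnt7a distal regions, as the list medians of 47 and 39 differ too.

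Signal was higher in replicate 1 at 55 of 66 Lmx1b distal regions, but the lists differ in scale. By percentile within each list, 39 were higher in replicate 1 and 26 lower. At En1 the corresponding counts were 14 and 8, and at Wnt7a 3 and 6. Over all distal shared regions the median percentile was also higher in replicate 1, at 59.7 against 56.9. The same split over all of them is not given here, so these counts show no trait of the 3 genes.

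Unmatched peaks of any class had lower medians than shared distal regions. The unmatched medians were 52 in replicate 1 and 39.5 in replicate 2 at Lmx1b, 53 and 33.5 at En1, and 26 and 16.5 at Wnt7a. At En1 in replicate 1 the shared median was little higher, at 56. The 2 sides are unlike, since the shared set is distal only and takes the highest signal of its merged peaks. At Lmx1b the highest signal among peaks without a partner was 64 in replicate 1, 79.3 kb upstream, and 66 in replicate 2, in intron 2. At Wnt7a the highest was 32 in each library. At En1 it was 74 in replicate 1, in coding exon 1, and 96 in replicate 2, beside the region 139 kb downstream.

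By number and total width, hotspots gave the same order of the 3 genes as the distal counts. These are totals over unequal nearest sequence, 209 kb at Lmx1b, 409 kb at En1 and 130 kb at Wnt7a, and are not corrected for length. The nearest sequence of Lmx1b held 70 hotspots covering 32.1 kb in replicate 1 and 75 covering 35.4 kb in replicate 2. That of En1 held 33 covering 9.86 kb and 37 covering 11.9 kb. That of Wnt7a held 17 covering 4.54 kb and 13 covering 5.96 kb. The widest at Lmx1b, in intron 2, were 2351 bp in replicate 1 and 3246 bp in replicate 2, against a widest of 946 and 967 bp at En1 and 793 and 1384 bp at Wnt7a.

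Base composition differed between the genes. The median GC content of the central 150 bp of distal shared regions was 55.6% at Lmx1b, 50.7% at En1 and 58.7% at Wnt7a, against 50% over all genes. GGGCGG, the SP run, was present in 14 of 66 Lmx1b distal regions or 21.2%, against 7.41% of all distal shared regions. CAGCTG was present in 16 of 66 Lmx1b regions or 24.2%, 3 of 23 En1 regions or 13% and 1 of 9 Wnt7a regions or 11.1%, against 16.6%. GGGCGG was in 1 region each at En1 and Wnt7a. Both runs are rich in G and C, as are the Lmx1b regions, and the part of base composition in these counts was not tested. TAATTA, the homeodomain core, was in 3 of 66 Lmx1b and 2 of 23 En1 regions and in 0 of 9 at Wnt7a, against 5.28% of all. The LEF/TCF run CTTTGAA was in 2, 1 and 0 regions, against 4.17%. The E-box CATCTG was in 10 of 66 Lmx1b regions or 15.2%, 7 of 23 En1 regions or 30.4% and 1 of 9 Wnt7a regions, together 18.4%, against 19.9% of all. The core searched for CTCF, a factor at chromatin loop anchors, was in 2 Lmx1b regions, 94.5 kb upstream and 71.0 kb downstream, and in none at En1 or Wnt7a, against 1.16% of all.

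After the sequences were seen, the shorter homeodomain core TAAT was counted on either strand in the central 150 bp of each region, where TAATTA counts on both strands. The strongest Lmx1b distal region, 60.4 kb upstream, held 6, a number reached by 423 of 87894 distal shared regions or 0.481%. The median over all distal shared regions was 1. Of the other Lmx1b distal regions, the one 61.0 kb upstream held 3, reached by 11.1%, and the one 13.4 kb downstream held 5, reached by 1.46%. Those 2.74 kb upstream and 47.4 kb downstream, also among the strongest, held 0, as did most of the 66. High counts thus did not mark the Lmx1b distal regions as a set. The printed sequence of the region 60.4 kb upstream shows its runs as taat or atta. A region 310 kb downstream of En1 held 7, reached by 0.148% of regions, but its signal was low at 26 and 16.

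The genes whose 6 counts (promoter, body and distal in each library) were most like those of Lmx1b were Zfp521, Tmem132c and Efna5, at Euclidean distances of 0.508, 0.525 and 0.641 on the log2(count + 1) scale. Their nearest sequence is longer, 806 to 837 kb. The most like En1 were Tars (0.837), Elac2 (1.00) and Zfp184 (1.03), and the most like Wnt7a were Stk26 (0.24), Cdh10 (0.308) and Hs3st2 (0.373). The likeness rests on 2 libraries of the same tissue and is in counts only.

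Other genes of the dorsoventral pathway were read the same way. Of 29 listed genes, 26 or 89.7% (Wilson 95% interval 73.6 to 96.4%) had a shared promoter region, against 66.8% of all protein-coding genes. The median number of distal shared regions was 10 in the list and 1 over all genes, and 17 of the 29 had at least the 9 of Wnt7a. These are genes of development, picked for this pathway, and nothing particular to it follows from the counts.

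Among ligands, 7 of 8 had a shared promoter region, and distal shared regions ran from 1 to 54. Wnt5a, a WNT ligand of limb outgrowth, had the most of the list with 54, from 78 peaks in replicate 1 and 75 in replicate 2, over 550 kb of nearest sequence. Bmp2, a BMP ligand, had 42 from 62 and 63. Fgf8, the FGF of the apical ridge, had no shared promoter region, since 1 promoter peak was listed in replicate 2 and 0 in replicate 1. The 4 receptors for WNT or BMP ligands all had a shared promoter region and 3 to 35 distal shared regions. So did the 5 intracellular members, with 4 to 27, the paralogs Lmx1a and En2 with the LIM cofactor Ldb1, with 3 to 28, and the antagonists Dkk1 and Grem1, with 10 and 12.

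Of the 7 targets or genes of neighbouring axes, 5 had a shared promoter region. Msx2, a homeobox gene downstream of BMP signalling, had 39 distal shared regions from 51 and 56 peaks. Shh, the ligand of the posterior limb margin, had no shared promoter region (replicate 2 listed 3 promoter peaks and replicate 1 listed 0) and 8 distal shared regions. Kera, which encodes a matrix proteoglycan, had no promoter peak in either library and 1 distal shared region. None of the 29 reached the 66 distal shared regions of Lmx1b.

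**Figure D5:**
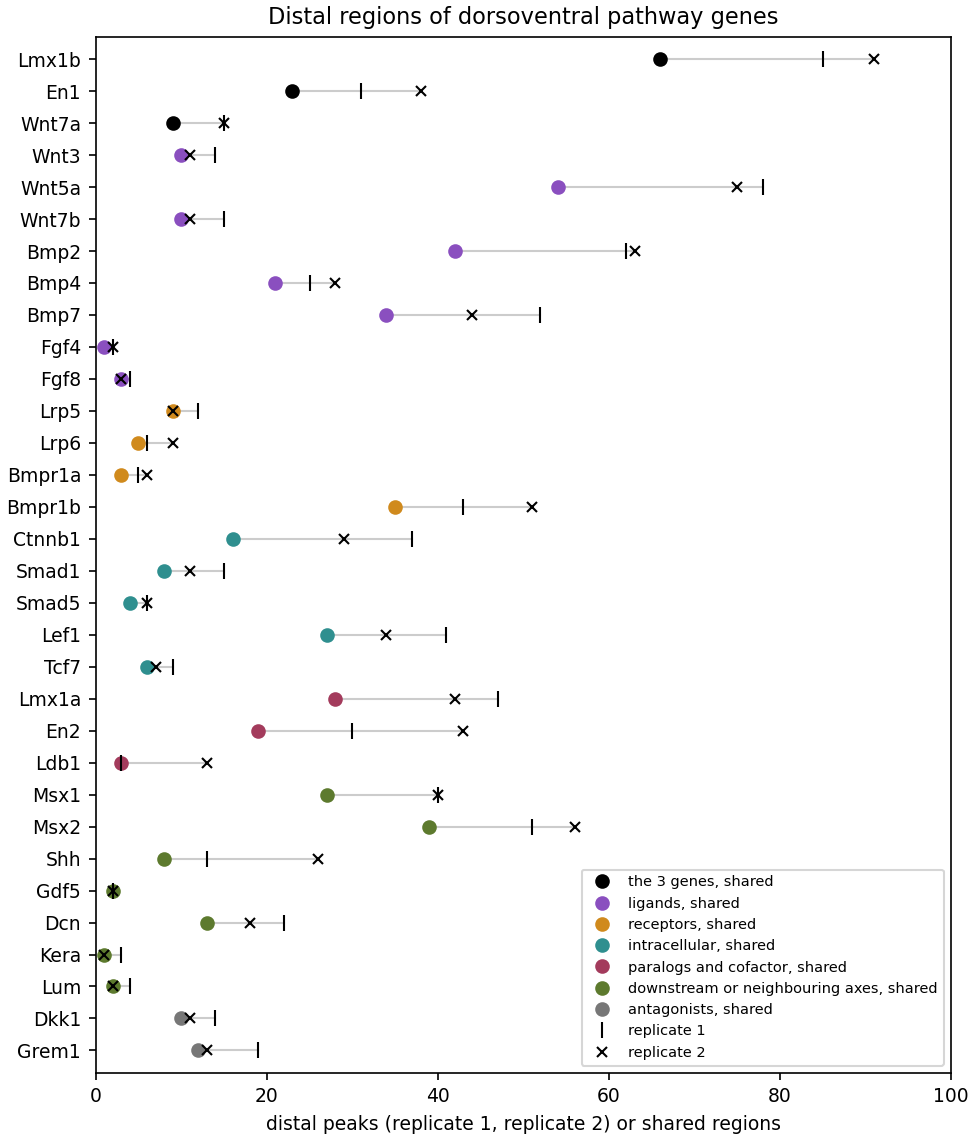
Distal peaks of replicate 1 (bars) and replicate 2 (crosses) and distal shared regions (circles, coloured by role) on the x axis for the 3 genes and 29 pathway genes. Lmx1b has 66 shared regions, Wnt5a 54 and Bmp2 42, and Kera and Fgf4 have 1 each.

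At the edges of the rules, the last Lmx1b region inside the upstream limit, 115 kb away, had 54 and 34, and the first beyond it, assigned to Mvb12b, had 78 and 47. On the downstream side the last inside, 82.0 kb away, had 94 and 77, and the first beyond, assigned to Zbtb43, had 63 and 51. The Lmx1b region just outside the 1 kb promoter window, at 1.17 kb upstream, had 47 and 50. At Wnt7a the corresponding region, at 1.07 kb downstream, had 27 and 25. At En1 the nearest region outside the window was 5.85 kb upstream, with 66 and 68.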

How the data were processed

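DNase-seq reads were aligned to mm10 per the labels, and the authors deposited peaks and hotspots for each library. Which aligner and caller were used is not given in the sources used here. Deposited peak lists give 150 bp peaks with a signal value whose scaling is not stated, and the deposited hotspot lists give a −log10 q per interval, up to 6 and then 100. The lists hold no read counts, so the depth is unknown.

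Peaks were compared by overlap of at least 1 bp, using Python 3.11.15 and NumPy 2.4.6, and assigned to starts of protein-coding transcripts (GENCODE vM21). Letter runs were read from GRCm38.p6. The RefSeq start comes from RefSeq's promoter table (GRCm38.p6). Overlap and assignment were tested on simulated data. Percentiles are within a list.

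With 2 libraries of 1 group, no test was made. The genes and lists were chosen with earlier results of these data known. Named regions were all promoter regions, the 5 distal regions highest in mean percentile, the 2 highest unmatched peaks per library, and regions beside the limits. Named pathway genes were the 3 with most distal shared regions and those without a shared promoter region, and the 3 genes most like each member were named. Other regions and genes named were chosen after their values were seen. Alternatives varied the overlap, a signal minimum, promoter window, reach, starts, hotspots for peaks, and each library alone.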

Additional observations from a re-analysis of the deposited data

How the results depend on the processing

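Of 108 recomputed counts (9 counts by class, under 12 alternatives each), 86 stayed within 1.5 times the reported value. With a reach of 50 kb the distal regions numbered 37 at Lmx1b, 4 at En1 and 7 at Wnt7a. With 100 kb they numbered 63 at Lmx1b, 7 at En1 and 9 at Wnt7a. With starts of all annotated genes competing, they numbered 14 at Lmx1b, 3 at En1 and 6 at Wnt7a. Noncoding starts then take the regions nearest to them. Under each of these settings Wnt7a had more distal regions than En1, the reverse of the order reported above. With peaks at or above the list median, En1 had 15 distal regions, and Wnt7a 3 distal, 1 promoter and 1 body. With a promoter window of 2 kb, promoter regions numbered 5 at Lmx1b and 5 at Wnt7a, and with 500 bp 1 at Wnt7a. With hotspots in place of peaks, Lmx1b and Wnt7a each had 1 promoter region and Wnt7a 2 in its body, since a hotspot can hold several peaks. An overlap of at least 75 bp left 3 body regions at Wnt7a. Leaving out a library gave 31 to 38 distal peaks at En1 and 15 to 15 at Wnt7a, 1 to 2 promoter and 0 to 3 body peaks at En1, and 6 to 8 body peaks at Wnt7a. The rank of Lmx1b by density was 1 under every alternative run for it except a minimum of 50 kb of nearest sequence, where it was 5. It was not computed with starts of all annotated genes competing, the setting that left 14 distal regions at Lmx1b, so the rank under that setting is unknown. The mean in place of the highest signal did not move a median percentile beyond the spread between libraries. A 300 bp window moved 9 of 21 counts of letter runs, such as TAATTA at Lmx1b, in 8 regions (12.1%, against 10.2% of all distal shared regions) in place of 3 (4.55%, against 5.28%). No paired analysis was possible because the 2 libraries form 1 group. Depth is unknown, so a missing peak is not evidence of closed chromatin, and the nearest start need not be the gene that a region acts on.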
